A study of Mus musculus with 26 samples.

Results

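Wild-type (WT) S49 cells after 6 h with 8-CPT-cAMP were compared with untreated WT cells. S49 cells come from a mouse T cell lymphoma, and 8-CPT-cAMP is an analogue of cyclic AMP (cAMP) that crosses the cell membrane and activates protein kinase A (PKA). By the source names in the labels, 3 arrays hold the 6 h samples and 4 arrays the untreated samples, 7 of the 26 arrays of the study. All genes with a log2 intensity of 5 or more on at least 3 of the 26 arrays are described, which are 7435 of the 12393 genes on the array. The study also holds WT cells at 2 and 24 h and D- cells, a "deathless" S49 variant that survives raised cAMP, at the same times. Each treated group has 3 arrays and each untreated group 4. The dose is labelled as 100 mM, a unit that may be an error, and no other treatment is given. The titles of the treated WT samples call them untreated with a time, while their source name and description call them treated, and the latter was followed. The growth text names D- cells for WT samples as well. The labels call the replicates biological but describe no separate cultures. The p-values therefore rest on the spread among these arrays, part of which may be technical. As a model, each group is 1 established line in culture.

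Cyclic AMP binds the regulatory subunits of PKA and frees the catalytic subunits, which enter the nucleus and phosphorylate CREB. CREB binds the cAMP response element (CRE) and induces genes such as Fos, Nr4a1 and Crem, and several of its targets, Crem, the phosphodiesterases and the RGS proteins among them, dampen the signal again. In immature T cells cAMP stops growth in G1, and S49 WT cells later die by apoptosis, which made this line a classical system for the genetics of PKA.

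The values are log2 of the authors' GCRMA intensities, on which 1 unit is a doubling. A change is the treated minus the untreated mean with its standard error (SE) from limma, and a gene was called at a Benjamini-Hochberg adjusted p under 0.05. Where 1 group mean of a called gene lay under log2 5, the change is given as "at least", from the brighter mean to 5, and where both did, no fold is given. Changes of genes that were not called are fitted values. Levels are compared between arrays for 1 gene, not between genes. In these bulk samples, fewer cells of a kind and less RNA per cell cannot be told apart.

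Across probe sets, which are not independent, arrays correlated at r 0.9939 to 0.998 among untreated and 0.9928 to 0.9976 among treated samples. The arrays were split into 2 clusters by the sign of the first axis of their deviations from the group means. By this rule every group has arrays in both clusters. The axis held 38.8% of the variance within groups. Cluster 1 held untreated replicates 1 and 2 and treated replicate 1 of WT, and cluster 2 held the others. As a gauge of RNA quality, the 3' probe set of Gapdh minus its 5' probe set gave -0.192, -0.152, 0.005 and 0.127 in untreated and -0.145, -0.035 and 0.059 in treated WT arrays. The cluster 1 arrays, at -0.192, -0.152 and -0.145, had the lowest of these values, and a link of the clusters with RNA quality was not tested. Within cluster 1, with 3 arrays of this comparison, 1360 probe sets were called, against 4601 over all 7 arrays and 4849 within cluster 2. For lists with 10 or more members called in 1 direction, that count within cluster 1 stands beside the list. The part of the clusters in the other results was not tested. Of 8 T cell defining markers on the array, only Cd5 lay under log2 5, and their summed level ran from 14.52 to 14.76 untreated and from 14.29 to 14.53 at 6 h. Of the markers of other cells, 8 of 13 B cell, 6 of 7 erythroid and 13 of 16 myeloid genes had untreated means under 5. The summed levels were 8.85 to 10.33 untreated and 8.46 to 8.53 at 6 h for B cell, 7.04 to 7.23 and 6.85 to 7.08 for erythroid, and 8.07 to 8.22 and 8.06 to 8.12 for myeloid markers. The summed level of the 14 stromal markers ran from 11.78 to 13.25 untreated and from 13.78 to 14.15 at 6 h, with 10 under 5 untreated and 8 at 6 h, the collagen genes Col1a1, Col1a2 and Col3a1 among them in both groups. Vim, Pecam1 and Pdgfrb of that list rose, by 1.40, 1.48 and at least 1.42, and T cells can express Vim and Pecam1 too. The part of other cells in the results was not tested.

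After 6 h, 1422 genes were higher (19.1% of those tested) and 1417 lower (19.1%), of which 410 and 316 changed at least 2-fold and 100 and 36 at least 4-fold. The median change over all genes was -0.006. All 3 treated arrays lay above all 4 untreated arrays for 1526 genes (20.5%) and below them for 1599 (21.5%). These shares are the background for the counts that follow.

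The gene with the largest rise was Sgip1, which encodes an adaptor of clathrin-mediated endocytosis. It read 4.31, 3.21, 3.91 and 3.22 untreated and 11.01, 11.93 and 11.34 at 6 h. The groups were far apart, and the rise was at least 6.43 (limma adjusted p = 4.45e-14). Wif1, a secreted inhibitor of Wnt ligands, read 6.84, 6.76, 5.69 and 5.67 and then 12.27, 12.10 and 12.09, a change of 5.91 ± 0.28 (limma adjusted p = 1.7e-12). Tceal1, a gene of the TCEAL family of transcription elongation factor-like proteins, went from 5.60, 5.19, 5.29 and 5.92 to 11.18, 11.22 and 10.62, a change of 5.51 ± 0.25. Maged1, an adaptor of the MAGE family, went from 8.45, 8.37, 8.93 and 9.23 to 13.40, 14.20 and 14.22, a change of 5.20 ± 0.28. These genes were picked among genes whose groups did not overlap, so their separation is no further result. The SE was small beside the change in each.

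Ramp3 encodes a membrane partner that sets the ligand preference of receptors coupled to adenylyl cyclase. It was near the floor untreated, at 2.17, 2.16, 2.67 and 2.35, and read 8.77, 8.49 and 8.73 at 6 h, a rise of at least 3.66 (limma adjusted p = 5.05e-10). Lmna, the gene of the A-type nuclear lamins, rose from 5.76, 5.50, 4.92 and 4.48 to 10.38, 9.60 and 9.68, a change of 4.72 ± 0.29. A second Lmna probe set gave a smaller log2 change, 1.77. Tnfrsf18, the costimulatory receptor GITR, rose from 6.14, 5.65, 6.00 and 6.45 to 10.34, 11.03 and 10.74, and Olig3, a basic helix-loop-helix factor, rose by 4.51 ± 0.31. Cd53, a tetraspanin of leukocytes, had a wide spread, with 7.29, 6.40, 9.0 and 8.35 untreated against 11.52, 13.11 and 13.00 at 6 h, and a change of 4.79 ± 0.78 (limma adjusted p = 5.87e-05). The tyrosine kinase Txk rose by at least 4.40 and the ceramidase Acer2 by at least 3.59. Amot, which encodes angiomotin, rose by at least 4.41 in its brightest probe set, which spread more widely still, from 2.75 to 6.24 untreated and from 8.50 to 10.79 at 6 h, while its other probe sets gave 0.02 and -0.01 and were not called.

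**Figure D1:**
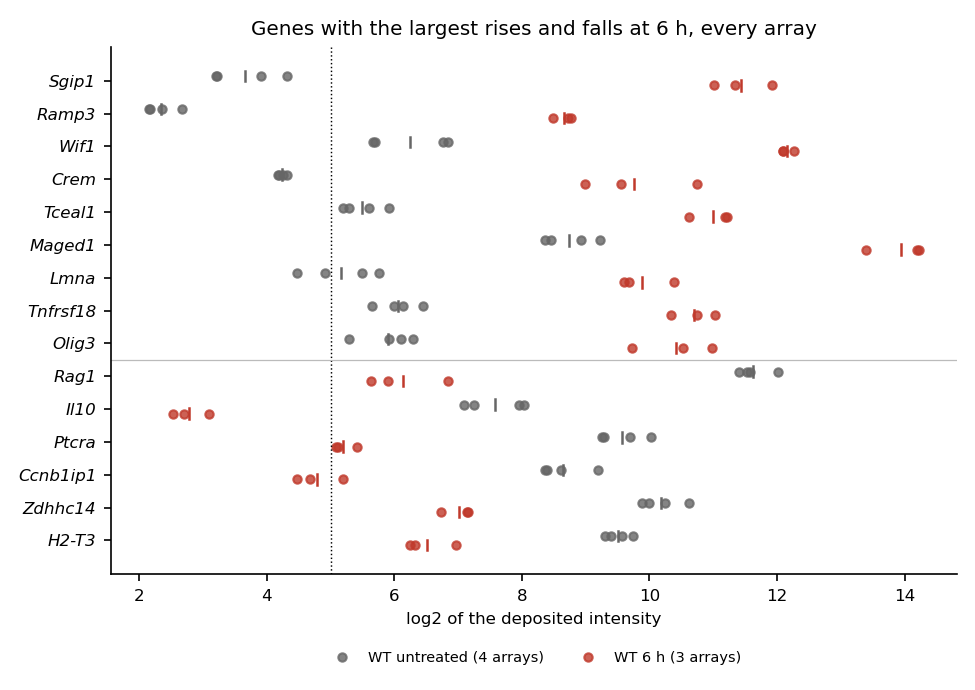
Log2 intensity (x axis) of 9 of the genes with the largest rises and 6 of those with the largest falls, 1 point per array, grey for the 4 untreated and red for the 3 WT 6 h arrays; short bars are group means and the dotted line is log2 5. The groups do not overlap in any of these genes, which was a condition of their choice, and Sgip1, Ramp3 and Crem start under the dotted line.

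Of 15 measured genes that CREB is known to drive, 8 were higher at 6 h, 1 was lower and 6 were not called, with a median of 1.15 against -0.006 for all genes. Crem, whose short product ICER represses CRE-driven transcription, read 4.26, 4.17, 4.32 and 4.19 untreated and 9.56, 10.74 and 8.99 at 6 h, a rise of at least 4.76 (limma adjusted p = 3.42e-08). Fos, a subunit of the AP-1 transcription factor, went from 3.61, 3.45, 3.29 and 4.39 to 7.35, 8.50 and 7.94, a rise of at least 2.93. Nr4a1, an orphan nuclear receptor induced at once by many signals, went from 8.93, 8.11, 7.26 and 8.50 to 9.99, 10.54 and 10.73, a change of 2.22 ± 0.29. Treated arrays lay above untreated arrays in all of these genes. Nfil3, a bZIP repressor, rose by at least 2.08. The gene that fell was Gadd45b, a stress sensor of the GADD45 family, with -0.86 ± 0.29, and its call was lost without treated replicate 2 or untreated replicate 1 or 2. Gadd45b was named after its value was seen. Within cluster 1, 6 CREB targets were higher with a median of 0.70, and within cluster 2, 11 with 1.40. Per1, a clock gene with a CRE, gave 0.76 ± 0.31 (limma adjusted p = 0.0612), and the cAMP phosphodiesterase Pde4b gave 0.53 ± 0.34 (limma adjusted p = 0.25), so neither was called.

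Genes known to dampen G protein or MAP kinase signals were followed next. Rgs2, which speeds the shut-off of G proteins, read 6.58, 4.24, 5.57 and 5.03 untreated and 9.40, 10.22 and 9.77 at 6 h, a change of 4.44 ± 0.33. Dusp1, a phosphatase that inactivates MAP kinases, read 6.67, 5.58, 6.91 and 7.71 and then 9.39, 10.87 and 10.48, a change of 3.53 ± 0.42 (limma adjusted p = 1.31e-06). Dusp10, a phosphatase of the same family that prefers p38 and JNK, changed by 2.75 ± 0.31. Of 15 measured RGS and MAP kinase feedback genes, 9 were higher and 2 lower, with a median of 0.51, and without untreated replicate 2, 5 were higher. In the cAMP and PKA pathway itself 4 of 22 were higher and 2 lower, with a median of 0.19. Neither share exceeds the 19.1% of all genes. Prkar1a, a regulatory subunit of PKA, rose from 10.89, 10.90, 10.89 and 10.96 to 12.05, 12.44 and 12.30, a change of 1.36 ± 0.10. The catalytic subunit gene Prkaca gave 0.36 ± 0.16 (limma adjusted p = 0.0826), the G protein subunit Gnb1 rose by 0.57 ± 0.11, and Akap1, which anchors PKA at mitochondria, fell by 1.04 on the log2 scale.

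Promoters of genes in this group were read in RefSeq's table (GRCm38.p6), 250 bases before to 50 after each start, to show where CRE letters lie in genes that rose. The full CRE was searched as TGACGTCA and its shorter core as TGACG, both on either strand, so that a core also reads CGTCA and each full CRE holds cores. Of the 100 genes called at least 4-fold higher, 80 had a promoter in the table, and 4 of these held a full CRE (5%) and 32 a core (40%). Among all 6109 tested genes with a promoter the shares were 3.7% and 38.1%, and they were 2.03% and 23% over all 27025 genes listed. The 4 genes at least 4-fold higher with a full CRE were Dusp1, Dio2, Trp53inp2 and Ppp1r15a. Dio2 and Trp53inp2 were named after their values were seen. Their promoters are printed 5' to 3' on the gene's strand with the letters of each CRE, core or E-box (CACGTG) in capitals. Dusp1 lies at chr17:26508423-26508722 on the minus strand, with the first base of its full CRE at position -143 from the start. Dio2 lies at chr12:90738989-90739288 (minus strand, CRE at -95), Trp53inp2 at chr2:155381606-155381905 (plus strand, CRE at -41) and Ppp1r15a at chr7:45526219-45526518 (minus strand, CRE at -12).
Dusp1: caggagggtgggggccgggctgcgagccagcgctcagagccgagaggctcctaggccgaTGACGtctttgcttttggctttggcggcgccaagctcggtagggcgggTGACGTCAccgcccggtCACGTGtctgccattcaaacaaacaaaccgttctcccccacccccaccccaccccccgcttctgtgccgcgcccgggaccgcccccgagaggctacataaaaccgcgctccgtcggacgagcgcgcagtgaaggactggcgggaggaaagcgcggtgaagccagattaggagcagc
Dio2: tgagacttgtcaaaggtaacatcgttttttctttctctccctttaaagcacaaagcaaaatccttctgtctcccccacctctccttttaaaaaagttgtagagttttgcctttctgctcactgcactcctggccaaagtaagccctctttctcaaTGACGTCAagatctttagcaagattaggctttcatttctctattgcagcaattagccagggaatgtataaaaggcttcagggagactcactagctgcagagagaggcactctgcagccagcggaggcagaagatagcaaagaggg
Trp53inp2: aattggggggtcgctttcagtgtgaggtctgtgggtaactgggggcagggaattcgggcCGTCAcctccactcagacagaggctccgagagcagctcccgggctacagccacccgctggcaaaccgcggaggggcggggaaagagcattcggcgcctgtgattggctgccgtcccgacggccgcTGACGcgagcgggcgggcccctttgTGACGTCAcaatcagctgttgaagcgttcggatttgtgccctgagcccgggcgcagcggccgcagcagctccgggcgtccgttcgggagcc
Ppp1r15a: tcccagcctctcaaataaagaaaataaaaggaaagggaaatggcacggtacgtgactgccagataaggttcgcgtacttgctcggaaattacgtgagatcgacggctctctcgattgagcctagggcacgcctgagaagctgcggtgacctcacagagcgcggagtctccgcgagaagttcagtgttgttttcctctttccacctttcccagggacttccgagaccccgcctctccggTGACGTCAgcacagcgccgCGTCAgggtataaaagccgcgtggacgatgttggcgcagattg

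Trp53inp2, which acts in autophagy, read 4.95, 5.04, 5.39 and 4.83 untreated and 8.13, 9.11 and 8.72 at 6 h, a change of 3.60 ± 0.35 (limma adjusted p = 8.37e-08). Dio2, the deiodinase that makes active thyroid hormone, read 5.02, 4.56, 5.09 and 4.41 and then 6.82, 8.46 and 8.60, a rise of at least 2.96. Ppp1r15a, or GADD34, which directs a phosphatase to eIF2 alpha, read 6.78, 6.22, 5.80 and 6.81 and then 8.46, 8.94 and 8.55, a change of 2.25 ± 0.24. No array of 1 group reached into the other in any of them.

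Fos and Nr4a1, which are textbook CREB targets, and Sgip1, the gene with the largest rise, held cores and no full CRE in this window. Fos is printed from chr12:85473640-85473939 (plus strand, 2 cores), Nr4a1 from chr15:101266596-101266895 (plus strand, 4) and Sgip1 from chr4:102759885-102760184 (plus strand, 1), again with cores in capitals.
Fos: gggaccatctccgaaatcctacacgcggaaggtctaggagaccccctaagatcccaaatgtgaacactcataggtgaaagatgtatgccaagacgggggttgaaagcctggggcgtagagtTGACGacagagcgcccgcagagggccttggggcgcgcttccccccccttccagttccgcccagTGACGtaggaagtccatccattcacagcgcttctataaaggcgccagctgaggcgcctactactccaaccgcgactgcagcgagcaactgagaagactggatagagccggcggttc
Nr4a1: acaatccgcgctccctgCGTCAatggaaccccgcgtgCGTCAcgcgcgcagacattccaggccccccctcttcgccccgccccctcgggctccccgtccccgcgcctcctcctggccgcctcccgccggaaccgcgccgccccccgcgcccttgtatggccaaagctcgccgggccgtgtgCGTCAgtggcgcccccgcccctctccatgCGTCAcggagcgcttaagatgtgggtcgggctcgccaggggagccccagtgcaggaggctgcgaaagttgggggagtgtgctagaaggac
Sgip1: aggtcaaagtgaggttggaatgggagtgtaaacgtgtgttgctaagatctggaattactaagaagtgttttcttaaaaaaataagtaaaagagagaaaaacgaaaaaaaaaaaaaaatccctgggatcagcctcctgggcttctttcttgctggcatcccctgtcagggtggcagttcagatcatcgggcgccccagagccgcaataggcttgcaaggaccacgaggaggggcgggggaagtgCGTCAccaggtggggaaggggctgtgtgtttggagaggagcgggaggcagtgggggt

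Of the 12 CREB targets with a promoter listed, 2 held a full CRE (16.7%) and 10 a core (83.3%). These matches describe letters in a fixed window and not bound sites. The E-box CACGTG, the letters that MYC family factors bind, stood in 63 of 270 promoters of genes called at least 2-fold lower (23.3%) and in 34 of 330 promoters of genes at least 2-fold higher (10.3%), against 752 of 6109 of all tested genes (12.3%). The full CRE stood in 6 of the 270 (2.22%) and in 18 of the 330 (5.45%). At 4-fold the E-box stood in 2 of 24 promoters of lower genes (8.33%) and in 7 of 80 of higher genes (8.75%). Of those 24 promoters, 2 held a core (8.33%) and 0 a full CRE.

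Genes that mark an immature T cell rearranging its receptor were among the largest falls. Rag1, the recombinase that cuts T cell receptor genes, read 11.40, 11.57, 12.01 and 11.53 untreated and 6.84, 5.90 and 5.64 at 6 h, a change of -5.50 ± 0.27 (limma adjusted p = 1.75e-12). Ptcra, the invariant chain of the pre-T cell receptor, fell from 9.70, 10.03, 9.29 and 9.26 to 5.08, 5.11 and 5.41, a change of -4.37 ± 0.47 (limma adjusted p = 3.82e-07). Neither gene's treated arrays came within 3 log2 units of the untreated arrays. Rag2, the partner of Rag1, changed by -1.93 ± 0.27, Dntt, the polymerase that adds bases at the junctions, by -1.68 ± 0.22, and Notch3, a receptor of the Notch family, by -2.01 ± 0.26. Bcl11b, a factor that holds T cell identity, fell from 11.81, 11.88, 12.10 and 12.14 to 10.73, 10.08 and 10.18. Notch1, which drives early T cell fate, changed by -1.11 ± 0.34, and its call was lost without treated replicate 2 (limma adjusted p = 0.0875). Id2, an inhibitor of E proteins, rose in the other direction, from 9.44, 8.81, 9.34 and 10.19 to 11.37, 12.20 and 12.24. Of 28 measured recombination and T lineage genes, 10 were lower and 7 higher, with a median of -0.15. Within cluster 1, 5 were lower.

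Other large falls came from separate functions. Il10, an anti-inflammatory cytokine, went from 7.09, 7.25, 7.95 and 8.04 to 2.53, 2.71 and 3.10, a fall of at least 2.58 on the log2 scale (bound -2.58, limma adjusted p = 2.51e-08). Ccnb1ip1, a ligase with a role in meiosis, went from 8.62, 9.20, 8.40 and 8.36 to 4.68, 4.47 and 5.19 (bound -3.65). Zdhhc14, a palmitoyltransferase, went from 10.24, 10.62, 10.00 and 9.88 to 7.14, 6.73 and 7.16, a change of -3.17 ± 0.21. The groups were separate in these genes as well, which the rule that picked them required. H2-T3, a non-classical MHC class I gene, changed by -2.99 ± 0.34, the choline dehydrogenase Chdh by -2.81 ± 0.25, the growth factor Bmp7 by -2.71 ± 0.33, Rangrf, a factor of nuclear import, by -2.76 ± 0.34, and Zfpm1, the GATA cofactor FOG1, by -2.57 ± 0.27. The retinol transporter gene Stra6 had a bound of -2.61, the acyl-CoA thioesterase Acot5 of -1.64 and the Ral exchange factor Rgl3 of -0.08. Ighm, the immunoglobulin heavy chain gene, changed by -2.54 ± 0.71 in its brightest probe set, with -0.18, -5.63, -0.2 and -0.05 in the others. Ifi204 changed by -2.85 ± 0.94 (limma adjusted p = 0.0209) and was not called without treated replicate 3 (limma adjusted p = 0.0857).

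Most genes that build ribosomes were lower. Of 75 measured ribosome assembly factors, 64 were lower, 38 of them at least 2-fold, and the other 11 were not called. The median was -1.03 and the range ran from -2.04 to 0.22. Polr1a, the largest subunit of RNA polymerase I, which transcribes ribosomal RNA, read 8.79, 9.20, 9.07 and 8.95 untreated and 7.67, 6.58 and 6.63 at 6 h, a change of -2.04 ± 0.24 (limma adjusted p = 1.39e-06). Its partner Polr1b changed by -1.65 ± 0.37. Grwd1, a histone chaperone in pre-ribosomes, changed by -1.96 ± 0.35, and Ppan, a factor of the large subunit, went from 9.85, 10.08, 9.69 and 9.66 to 8.54, 7.43 and 7.80. Gnl3, or nucleostemin, went from 13.08, 13.30, 12.89 and 12.77 to 11.84, 10.64 and 11.05, and Nhp2, a protein of box H/ACA particles, changed by -1.70 ± 0.37. In all of these the lowest untreated array lay above the highest treated array, and treated replicate 1 was the highest of its group. Without that replicate 63 members were lower with a median of -1.12. Within cluster 1, 48 were lower with -0.85, and within cluster 2, 63 with -1.07. The E-box stood in 15 of 66 promoters of the list (22.7%) against 12.3% of all tested genes.

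Myc, the transcription factor known to drive ribosome assembly and nucleotide synthesis, was itself lower, with 10.12, 10.01, 10.98 and 10.67 untreated and 8.53, 8.03 and 8.45 at 6 h, a change of -2.11 ± 0.30 (limma adjusted p = 1.21e-05). Its treated arrays all lay below its untreated arrays. Mxd4, a repressor that competes for the same partner as MYC, rose by 1.27 ± 0.26.

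Of 41 measured cytosolic ribosomal protein genes, 3 were lower, 1 higher and 37 not called, with a median of 0.01. Rpl12 was the lowest, with 7.20, 7.59, 7.27 and 7.57 untreated and 6.30, 4.99 and 4.96 at 6 h, a change of -1.99 ± 0.36. Of 73 mitochondrial ribosomal proteins, 43 were lower and 30 not called, with a median of -0.46. Among them Mrpl12 changed by -1.25 ± 0.31 and Mrps18b by -1.17 ± 0.26. Within cluster 1, 8 mitochondrial ribosomal protein genes were lower, with a median of -0.39, and without treated replicate 2, 26 were lower. No test compared these lists with each other.

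Genes that charge tRNA and act in translation were then counted. Of 29 aminoacyl-tRNA synthetase genes, 22 were lower and 7 not called, with a median of -0.63, and within cluster 1, 7 were lower with -0.55. Yars, which charges tyrosine tRNA, went from 8.62, 8.67, 9.09 and 9.08 to 7.21, 7.17 and 7.54, a change of -1.56 ± 0.14. Iars for isoleucine changed by -1.21 ± 0.17 and Farsb for phenylalanine by -1.32 ± 0.20. Of 51 translation factors, 23 were lower, 3 higher and 25 not called, with a median of -0.23, and within cluster 1, 5 were lower. Some of the larger changes in that list were in regulators of initiation. Eif2ak3, the endoplasmic reticulum kinase PERK that slows initiation, rose by 1.96 ± 0.16, Eif4e3, a cap-binding protein, rose by 1.42 ± 0.26, and Eif4ebp1, which inhibits the cap-binding protein eIF4E, changed by -1.14 ± 0.30, a call lost without treated replicate 2 (limma adjusted p = 0.0557). Of 14 RNA polymerase III genes, 5 were lower and 3 higher, with a median of -0.22. Polr3g, a subunit found in dividing and embryonic cells, fell from 7.0, 6.79, 7.34 and 6.91 to 4.69, 5.13 and 4.82 (bound -2.01), Polr3e changed by -1.14 ± 0.16, and the small subunit Polr3k rose by 0.65 ± 0.11.

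**Figure D2:**
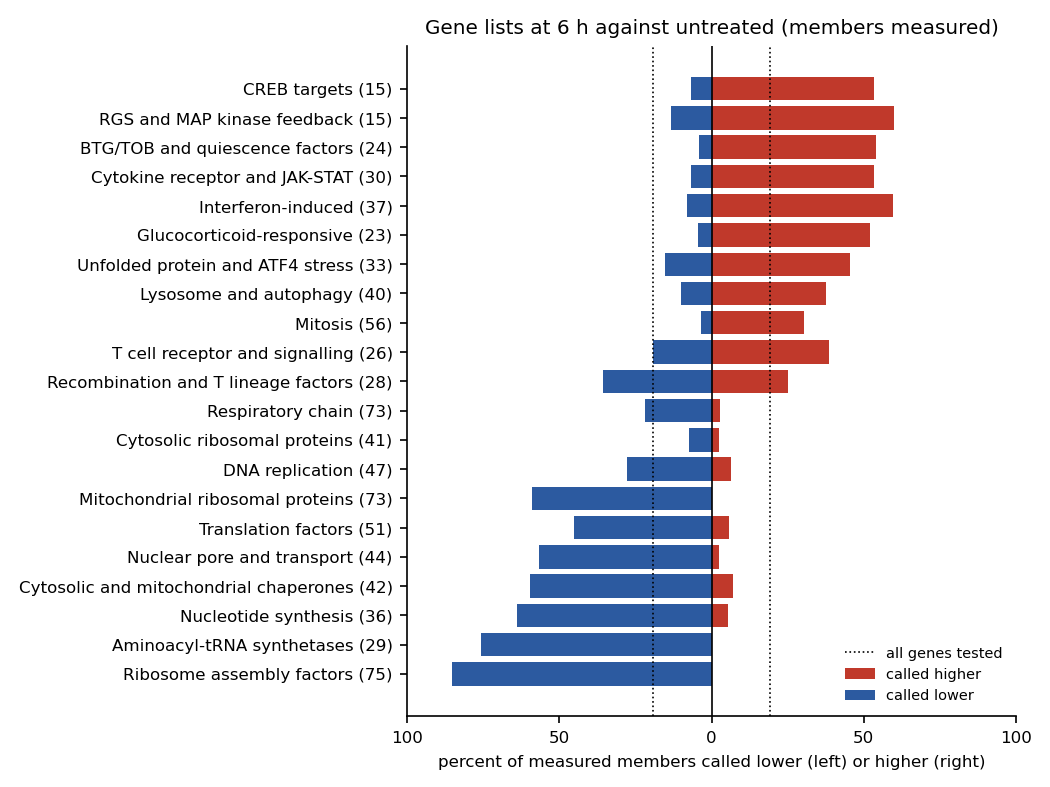
Percent of the measured members of 21 gene lists called lower (blue, left) or higher (red, right) at 6 h; the number of measured members stands in parentheses and the dotted lines mark the 19.1% of all tested genes called in each direction. Ribosome assembly factors and aminoacyl-tRNA synthetases reach furthest to the left, with 64 of 75 and 22 of 29 lower, and cytosolic ribosomal proteins lie inside the dotted lines.

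Lists of nucleotide and 1-carbon synthesis followed. Of 36 measured nucleotide synthesis genes, 23 were lower and 2 higher, with a median of -0.54. Gart, an enzyme of several steps of purine synthesis, went from 11.07, 11.14, 11.17 and 10.93 to 9.66, 9.04 and 9.23, a change of -1.77 ± 0.21. Ctps, which makes CTP, changed by -1.72 ± 0.17, Ampd2, the AMP deaminase, by -1.57 ± 0.26, and Cad, which starts pyrimidine synthesis, by -1.25 ± 0.26. Within cluster 1, 11 members were lower and 3 higher, with a median of -0.42. Of 24 genes of serine, 1-carbon and polyamine synthesis, 13 were lower and 3 higher, with a median of -0.48, and within cluster 1, 5 were lower. Srm, the spermidine synthase, went from 12.19, 12.55, 12.03 and 11.88 to 10.18, 9.16 and 9.62, a change of -2.51 ± 0.30 (limma adjusted p = 1.5e-06). Shmt2, the mitochondrial serine hydroxymethyltransferase, changed by -1.87 ± 0.25, Mthfd1 by -1.38 ± 0.24 and Bcat1, which breaks down branched amino acids, by -1.73 ± 0.26. Sat1, which degrades polyamines, went the other way, from 9.26, 9.35, 9.50 and 9.72 to 10.61, 11.16 and 11.56. Odc1, the first enzyme of polyamine synthesis, gave -0.28 ± 0.12 and was not called (limma adjusted p = 0.0745).

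Genes of transport and protein turnover differed by list. Of 11 amino acid transporters, 3 were lower and 8 not called, with a median of -0.19. The 3 were Slc1a5, the glutamine carrier, with 9.62, 9.76, 9.90 and 9.89 untreated and 8.19, 7.77 and 7.95 at 6 h, Slc1a4 with -1.24 ± 0.28 and Slc7a6 with -1.08 ± 0.16. Nuclear pore and transport genes were lower in 25 of 44 and higher in 1, with a median of -0.44, and within cluster 1, 6 were lower with -0.39. Nup210, a pore membrane protein, changed by -1.79 ± 0.18, the exportin for microRNA precursors Xpo5 by -1.64 ± 0.27 and the tRNA exportin Xpot by -1.46 ± 0.20. Of 42 chaperones, 25 were lower and 3 higher, with a median of -0.41, and within cluster 1, 4 were lower with -0.36. The HSP90 partner Fkbp5 changed by -1.54 ± 0.20, Fkbp4 by -1.07 ± 0.14, and Hsph1, a nucleotide exchange factor of HSP70, by -0.92 ± 0.14. Of 45 proteasome genes, 11 were lower and 1 higher, with a median of -0.10, a share near the 19.1% of all genes. Within cluster 1, 2 were lower, and without treated replicate 2, 6 were. The largest change was in the assembly chaperone Psmg1, with -1.12 ± 0.14. Respiratory chain genes were lower in 16 of 73 and higher in 2, with a median of -0.13, again near the share of all genes. None was lower within cluster 1 (0), 7 were without treated replicate 2, 9 without treated replicate 3 and 10 without untreated replicate 1 or 2. The largest change among them was that of Ndufa5 in complex I, -0.88 ± 0.14.

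Cell cycle genes were counted in lists for G1, DNA replication and mitosis, which no test compared with each other. Of 34 G1 genes, 10 were lower and 4 higher, with a median of -0.09, and within cluster 1, 5 were lower. Ccne2, a cyclin of the G1 to S transition, went from 9.35, 8.90, 9.27 and 8.78 to 7.44, 7.17 and 6.84, a change of -1.92 ± 0.32, and Ccne1 changed by -1.38 ± 0.22. E2f1, the activator of S phase genes, changed by -1.02 ± 0.13. Cdkn1b, or p27, an inhibitor of CDK2, rose from 8.50, 8.22, 8.93 and 9.45 to 10.00, 10.48 and 10.71, a change of 1.62 ± 0.30. Ccnd2 gave -0.10 ± 0.23 and Ccnd3 -0.30 ± 0.20, both D-type cyclins and neither called. Of 47 DNA replication genes, 13 were lower, 3 higher and 31 not called, with a median of -0.26. The number lower was 6 within cluster 1, 8 without treated replicate 2 or untreated replicate 2, and 7 without treated replicate 3. Ung, a uracil glycosylase, changed by -2.54 ± 0.48, Uhrf1, which copies DNA methylation, by -1.0 ± 0.20, and the origin subunit Orc2 by -0.87 ± 0.12.

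Mitosis genes were higher in 17 of 56 and lower in 2, with a median of 0.23. Smc4, a subunit of condensin, went from 12.24, 12.26, 12.60 and 12.53 to 13.13, 13.34 and 13.45, a change of 0.90 ± 0.14. Cdc25b, a phosphatase that starts mitosis, changed by 0.83 ± 0.12 and Ttk, a spindle checkpoint kinase, by 0.75 ± 0.20. Cenpf, a kinetochore protein, changed by 0.84 ± 0.24, a call lost without treated replicate 2 or 3 (limma adjusted p = 0.0539 and 0.0671). Within cluster 1, 3 members were higher with a median of 0.14, within cluster 2, 19 with 0.29, and without treated replicate 2, 9.

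Genes known from resting lymphocytes formed another list. Of 24 measured BTG/TOB and quiescence genes, 13 were higher and 1 lower, with a median of 0.81. Foxo1, a transcription factor of resting cells, went from 8.23, 8.26, 8.83 and 8.67 to 10.36, 10.73 and 10.67, a change of 2.09 ± 0.20 (limma adjusted p = 6.45e-08). Pdcd4, an inhibitor of translation initiation, changed by 1.86 ± 0.25, and the MTOR inhibitor Ddit4 went from 9.33, 9.05, 9.74 and 10.96 to 11.48, 11.45 and 11.62. Slfn2, a gene of T cell quiescence, changed by 1.5 ± 0.18 and Cited2 by 1.67 ± 0.17. The member that fell was Klf10, a TGF-beta induced factor named after its value was seen, with -1.16 ± 0.27. Klf2, another factor of resting T cells, gave 0.27 ± 0.31 and was not called. Within cluster 1, 8 of these genes were higher, and within cluster 2, 15.

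**Figure D3:**
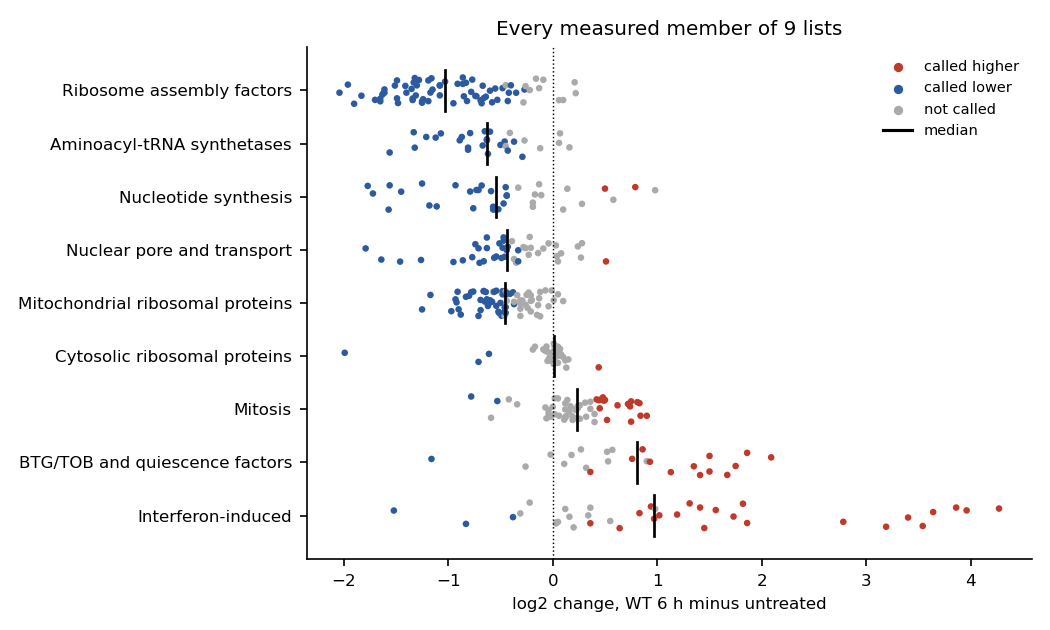
Log2 change at 6 h (x axis) of every measured member of 9 lists, 1 point per gene, red if called higher, blue if called lower and grey if not called; black bars are list medians. Ribosome assembly factors lie mostly left of 0 with a median of -1.03, cytosolic ribosomal proteins cluster at 0.01, and quiescence and interferon-induced genes lie mostly right, at 0.81 and 0.97.

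Of 26 measured T cell receptor and signalling genes, 10 were higher and 5 lower, with a median of 0.35. The share lower is near the 19.1% of all genes. Ctla4, an inhibitory receptor of activated T cells, went from 6.76, 5.72, 6.33 and 7.35 to 10.90, 10.86 and 10.25, a change of 4.13 ± 0.39 (limma adjusted p = 5.95e-08). Ptpn22, a phosphatase that restrains receptor signals, went from 8.45, 7.98, 8.71 and 8.29 to 11.84, 12.55 and 12.13, a change of 3.81 ± 0.17. Prkcq, the protein kinase C of the T cell synapse, went from 7.63, 7.45, 8.45 and 7.96 to 10.13, 10.49 and 10.42. No treated array of these genes reached down to the untreated arrays. The costimulator Cd28 rose by 1.31 ± 0.33 and the kinase Zap70 by 1.22 ± 0.08. Cd2, an adhesion receptor, fell from 7.12, 6.89, 6.80 and 6.85 to 5.08, 4.46 and 4.96 (bound -1.91), and Thy1 changed by -1.51 ± 0.19. Within cluster 1, 6 members were higher and 2 lower, and within cluster 2, 11 and 6. Among 5 measured granule genes 3 rose, the protease inhibitor-like genes Ctla2a by 4.74 ± 0.36 and Ctla2b by at least 2.63, and Srgn, the granule proteoglycan serglycin, by 2.72 ± 0.21. The Ctla2 genes are close copies whose probes may share transcripts.

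Of 30 cytokine receptor and JAK-STAT genes, 16 were higher and 2 lower, with a median of 0.58. Both chains of the interferon gamma receptor rose, Ifngr1 from 8.91, 8.52, 8.66 and 8.63 to 11.15, 11.69 and 11.34 and Ifngr2 from 5.40, 5.98, 5.61 and 5.36 to 7.11, 8.86 and 8.73. The type I interferon receptor chain Ifnar1 changed by 2.23 ± 0.18, the interleukin 12 receptor chain Il12rb1 by 2.43 ± 0.30, the kinase Jak2 by 1.58 ± 0.20 and the TGF-beta receptor Tgfbr2 by 1.86 ± 0.25. Within cluster 1, 11 of the list were higher.

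Of 37 measured interferon-induced genes, 22 were higher and 3 lower, with a median of 0.97. Irf8, a transcription factor of interferon responses, went from 7.33, 7.33, 8.06 and 7.90 to 10.37, 11.49 and 11.29, a change of 3.40 ± 0.35 (limma adjusted p = 1.9e-07). Igtp, an immunity-related GTPase, went from 7.24, 6.85, 7.03 and 7.28 to 9.62, 11.68 and 11.60, and Irgm2 of the same family from 4.79, 4.71, 4.83 and 4.62 to 6.85, 9.19 and 9.08. Treated replicate 1 was well below the other treated arrays in these GTPases and still above every untreated array. Bst2, or tetherin, fell by 1.52 on the log2 scale and was named after its value was seen. Within cluster 1, 10 of the list were higher with a median of 0.44, and within cluster 2, 25 with 1.15. None of 32 promoters of the list held a full CRE (0), and 9 held a core (28.1%).

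Of 24 measured adhesion and homing genes, 7 were higher and 4 lower, with a median of 0.22. The share lower does not exceed the 19.1% of all genes. Ccr7, the receptor for lymph node chemokines, went from 4.34, 4.54, 4.67 and 4.44 to 6.73, 7.57 and 7.40, a rise of at least 2.23, while Ccr9, the thymic and gut homing receptor, went from 11.37, 12.23, 10.27 and 10.65 to 10.37, 8.07 and 8.85, a change of -2.04 ± 0.47. In Ccr9 the treated replicate 1 overlapped the untreated arrays. The integrin chain Itgb2 rose by 1.11 ± 0.13 and the cell adhesion gene Emb by 1.55 ± 0.22.

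Of 25 measured genes of glucose uptake and glycolysis, 6 were higher and 6 lower, with a median of 0.07, shares near those of all genes. Without treated replicate 1, 3 were higher. Slc2a3, the transporter GLUT3, went from 8.91, 8.70, 8.57 and 10.08 to 11.80, 12 and 12.15, a change of 2.92 ± 0.31 (limma adjusted p = 2.62e-07). Slc2a1, or GLUT1, changed by 1.47 ± 0.42, but its untreated array 4, at 11.77, lay inside the treated range of 11.04 to 12.32, and the call was lost without treated replicate 1 (limma adjusted p = 0.0544) and within cluster 2 (0.76, limma adjusted p = 0.329). Hk2, the first enzyme of glycolysis, changed by 1.23 ± 0.33 and was not called within cluster 2 (limma adjusted p = 0.0507). Hif1a, the oxygen-sensitive regulator of these genes, changed by 1.62 ± 0.29, and the enolase Eno3 by -1.71 ± 0.26.

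Lysosome and autophagy genes were higher in 15 of 40 and lower in 4, with a median of 0.26, and within cluster 1, 4 were higher. Tecpr1, which acts in the fusion of autophagosomes with lysosomes, went from 8.70, 8.82, 8.72 and 8.51 to 10.33, 10.54 and 10.34, the lysosomal membrane protein Lamp2 changed by 1.33 ± 0.18 and the autophagosome protein Map1lc3b by 1.14 ± 0.11. Ctsl, a lysosomal protease, changed by -1.51 ± 0.28. Unfolded protein and ATF4 stress genes were higher in 15 of 33 and lower in 5, with a median of 0.39, and within cluster 1, 5 were higher. Edem1, which sends misfolded proteins to degradation, changed by 1.32 ± 0.16, and Chac1, a target of ATF4 that degrades glutathione, by -1.53 ± 0.30. Cholesterol genes were higher in 7 of 30 and lower in 5, with a median of 0.14, shares near the 19.1% of all genes. Cyp51, a sterol demethylase, changed by 1.5 ± 0.35, and Mvd, an earlier enzyme of the same pathway, by -1.04 ± 0.24.

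Of 21 measured pro-apoptotic genes, 5 were higher and 3 lower, with a median of 0.10, and of 21 anti-apoptotic genes, 7 were higher and 3 lower, with 0.14. Apart from the anti-apoptotic genes that were higher, these shares lie near or under the 19.1% of all genes, and without treated replicate 2 those were 4. Bcl2l11, or BIM, a trigger of mitochondrial apoptosis, read 9.19, 8.86, 9.05 and 9.13 untreated and 10.19, 10.66 and 10.37 at 6 h, a change of 1.35 ± 0.22 (limma adjusted p = 5.47e-05). The initiator caspase gene Casp8 changed by 1.09 ± 0.12, the death-associated kinase Stk17b by 1.45 ± 0.21 and the apoptosome scaffold Apaf1 by 0.87 ± 0.23. Bid, which links caspase 8 to mitochondria, changed by -0.91 ± 0.14. Among protectors, Cflar, the inhibitor of caspase 8, changed by 1.16 ± 0.19 and Tnfaip8 by 1.11 ± 0.14. Bcl2 gave 0.14 ± 0.15 and Mcl1 0.24 ± 0.15, and neither was called. Of 20 p53 targets 4 were higher and 4 lower, with a median of -0.02, shares near those of all genes. The atypical cyclin Ccng2 changed by 2.68 ± 0.39, the growth arrest gene Gadd45a by 2.05 ± 0.27 and the nuclease Aen by -1.91 ± 0.24. Of 22 NF-kB genes 4 were higher and 18 not called, with a median of 0.03, and the share higher is again near that of all genes. Tnfaip3, or A20, an inhibitor of NF-kB, rose by at least 0.50, a call lost without treated replicate 1 or 3 or untreated replicate 3 (limma adjusted p = 0.0762, 0.0549 and 0.055).

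Glucocorticoid-responsive genes, of interest since glucocorticoids also kill S49 cells, were higher in 12 of 23 and lower in 1, with a median of 0.76, and within cluster 1, 6 were higher. Tsc22d3, or GILZ, went from 9.48, 9.06, 8.76 and 9.59 to 10.77, 10.74 and 10.65, a change of 1.5 ± 0.19, and the kinase Sgk1 from 8.92, 7.45, 8.35 and 9.0 to 10.53, 10.63 and 10.57, a change of 2.15 ± 0.34. The gene of this list that fell was Fkbp5. Several members, Dusp1 among them, also stand in the CREB list. Nr3c1, the glucocorticoid receptor, changed by 0.76 ± 0.24, a call lost without treated replicate 2 or 3 (limma adjusted p = 0.0719 and 0.0579).

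The remaining lists are given in brief, to be read beside the 19.1% of all genes called in each direction. AP-1 and early growth factors were higher in 5 of 16 and lower in 2 (median 0.57), with the ETS factor Elk3 at 0.92 ± 0.24. Circadian clock genes were higher in 3 of 13 and lower in 1 (median 0.26), with the nuclear receptor Rora at 1.66 ± 0.52. Genes of mRNA decay were higher in 7 of 38 and lower in 11 (median -0.17), with 4 lower within cluster 1 and 2 higher without treated replicate 2. In that list Zfp36, which destabilises cytokine messages, changed by 1.75 ± 0.21, the splicing regulator Celf2 by 1.66 ± 0.30 and the exosome subunit Exosc5 by -1.40 ± 0.23. DNA repair genes were lower in 18 of 40 and higher in 2 (median -0.29), and the number lower was 2 within cluster 1, 9 without treated replicate 3 and 11 without untreated replicate 4. That list held the abasic site nuclease Apex1 at -1.12 ± 0.20 and the excision nuclease Ercc5 at 1.37 ± 0.21. Chromatin modifiers were higher in 4 of 33 and lower in 6 (median 0.14), with Arid5a at 2.71 ± 0.21 and the acetyltransferase Kat2a at -1.72 ± 0.17. Lipid and phosphoinositide signalling genes were higher in 8 of 23 and lower in 3 (median 0.14), with the phosphatase Inpp4a at 1.72 ± 0.20 and the diacylglycerol kinase Dgka at 1.85 ± 0.20. The pseudokinase Trib2 of that list changed by 2.20 ± 0.65, a call lost without treated replicate 3 (limma adjusted p = 0.0517).

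To see what differed from the earlier time, the 6 h arrays were set directly against the 3 WT arrays at 2 h, with no control in common. At 6 h 933 genes were higher (12.5% of those tested) and 673 lower (9.05%), with a median of -0.008, and 199 and 96 differed at least 2-fold.

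Part of the early wave was lower again. Of the 15 CREB targets, 7 were lower at 6 h than at 2 h and 1 higher, with a median of -0.92. Nr4a1 read 12.67, 12.49 and 12.09 at 2 h, all above its 6 h arrays, and differed by -2.0 ± 0.31 (limma adjusted p = 0.000132). Zfp36 read 10.46, 10.51 and 10.54 at 2 h and differed by -2.09 ± 0.23, Fos by -1.40 ± 0.40 and Rgs2 by -1.08 ± 0.36. Maff, a small bZIP repressor, read 4.77, 6.56 and 5.95 at 2 h and 3.01, 2.91 and 3.11 at 6 h, where its mean lay under 5. Per1 and Pde4b, which were not called against untreated cells at 6 h, were lower than at 2 h, with differences of -1.16 ± 0.33 and -1.39 ± 0.37. Crem gave -0.45 and Dusp1 -0.69, and neither was called (limma adjusted p = 0.592 and 0.299).

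Ribosome assembly factors were lower than at 2 h in 38 of 75 and higher in 1, with a median of -0.52, and 25 were lower without 6 h replicate 3. Aminoacyl-tRNA synthetases were lower in 13 of 29, with a median of -0.41, and 8 were lower without 6 h replicate 2. Polr1a differed by -1.40 ± 0.26, Srm by -1.60 ± 0.32, Shmt2 by -1.60 ± 0.26, Gart by -1.29 ± 0.22 and Nup210 by -1.60 ± 0.19. Myc differed by 0.38 ± 0.32 and was not called (limma adjusted p = 0.441). Rag1 read 8.80, 9.32 and 8.79 at 2 h and was lower at 6 h, with a difference of -2.84 ± 0.28 (limma adjusted p = 2.14e-06), and Zdhhc14 read 9.75, 9.33 and 8.56 and was lower with -2.20 ± 0.22. Il10 read 4.31, 5.38 and 5.0 at 2 h, so that both of its means lay under 5. Ptcra gave 0.05 and was not called (limma adjusted p = 0.959). Set side by side, its changes from the shared untreated arrays were -4.42 at 2 h and -4.37 at 6 h, and those of Rag1 were -2.66 and -5.50.

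Other genes were higher at 6 h than at 2 h. Wif1 differed by 2.24 ± 0.30, Ramp3 by 2.13 ± 0.46, Ctla2b by 2.39 ± 0.28 and Il12rb1 by 2.37 ± 0.32. Elk3 differed by 1.89 ± 0.26, Cflar by 1.29 ± 0.20 and Bid by 0.96 ± 0.15.

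Of the 37 interferon-induced genes, 18 were higher at 6 h than at 2 h and 1 lower, with a median of 0.39. Gbp2, a guanylate-binding GTPase, read 2.88, 3.02 and 3.17 at 2 h and 4.86, 7.77 and 7.94 at 6 h (limma adjusted p = 0.000269). Gbp3 of the same family read 4.89, 5.26 and 5.55 and then 6.55, 8.51 and 8.83, a difference of 2.73 ± 0.42. Ifi47 read 7.53, 8.56 and 9.90 and then 9.89, 11.87 and 12.06, a difference of 2.61 ± 0.52. Replicate 1 was the lowest at each treated time in these genes, and in Ifi47 its 6 h value overlapped the 2 h arrays. Without replicate 1 at 6 h the differences were 3.44 for Gbp3 and 3.30 for Ifi47. Same-numbered 2 h and 6 h arrays deviated together, but they also shared a cluster, and pairing by number beyond the cluster was not tested. Between same-numbered arrays Ifi47 was higher at 6 h by 2.36, 3.31 and 2.16 and Gbp3 by 1.66, 3.25 and 3.28. With the replicate number as a block both remained called (limma adjusted p = 0.000882 for Ifi47 and 0.000251 for Gbp3). Parp14, an ADP-ribosyltransferase, differed by 2.74 ± 0.42, and 3.15 without that replicate. Gbp6, with 4.01, 5.57 and 7.73 at 2 h and 6.63, 10.34 and 10.23 at 6 h, was called (limma adjusted p = 0.0209), but not without 2 h replicate 1 (0.12) or 2 (0.0604) or 6 h replicate 2 or 3 (0.104 for each). With the block its limma adjusted p was 0.0148, and between same-numbered arrays it was higher by 2.62, 4.77 and 2.50. Iigp1 was not called without 6 h replicate 2 (0.0789) or 3 (0.0831), and neither was Gbp2b (0.0576 and 0.0545). By contrast Irgm2, at 7.48, 9.90 and 10.83 at 2 h, and Igtp, at 9.20, 10.97 and 12, had reached their 6 h range by 2 h and gave -1.03 and 0.24, not called (limma adjusted p = 0.276 and 0.821). Between same-numbered arrays, the 6 h minus 2 h difference was -0.63, -0.71 and -1.75 for Irgm2. For Igtp it was 0.42, 0.71 and -0.40. The count of interferon-induced genes higher was 18 without 6 h replicate 1, 12 without replicate 2, 11 without replicate 3 and 17 within cluster 2.

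**Figure D4:**
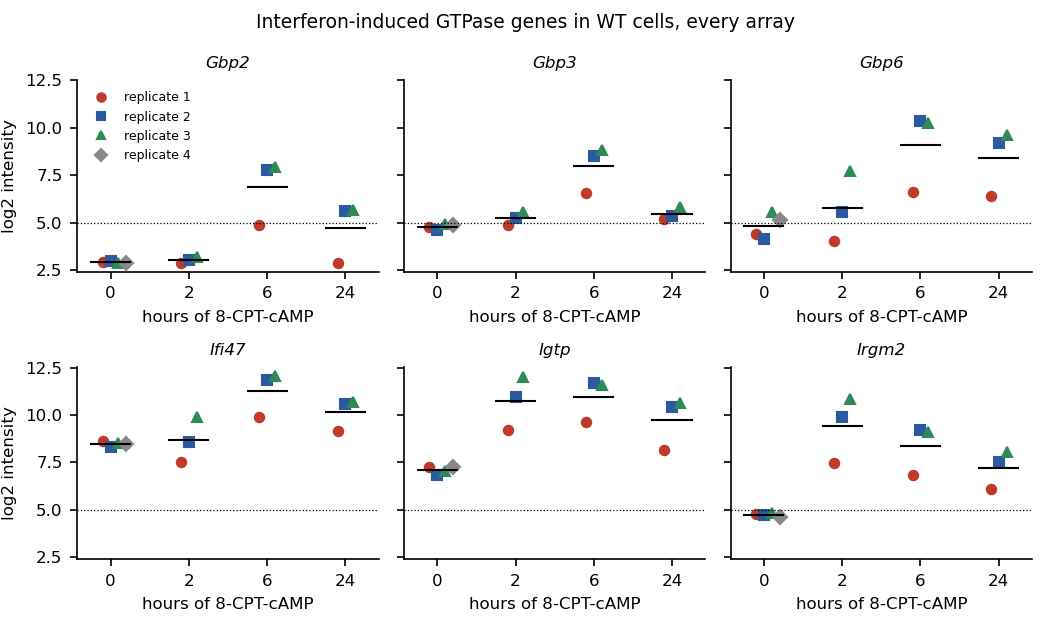
Log2 intensity (y axis) of 6 interferon-induced GTPase genes in WT cells at 0, 2, 6 and 24 h (x axis), 1 symbol per array by replicate number, with group means as bars and log2 5 dotted. Replicate 1 (red circles) lies lowest at every treated time, Gbp2, Gbp3, Gbp6 and Ifi47 are highest at 6 h, and Igtp and Irgm2 are already high at 2 h.

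The 6 h response was then compared with that of D- cells, as the D- response minus the WT response. It differed for 44 genes, higher in D- for 11 (0.148% of those tested) and lower for 33 (0.444%). No member of the ribosome assembly, CREB or interferon-induced lists was called, and their medians were 0.16, -0.04 and -0.37. A gene not called here was not shown to respond alike.

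Where a group mean of either line lay under log2 5, the difference between responses is a fitted value and no fold. This holds for the genes below except Ctla4, Prkcq, Dgka, Slfn2, Arid5a, Zap70, Ppp1r15a and Palld.

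The largest of the smaller responses in D- was that of Ctla2b. It read 3.11, 2.67, 3.21 and 3.17 in untreated and 3.87, 3.14 and 3.10 in treated D- cells, under the floor throughout, and the fitted difference was -4.22 ± 0.37 (limma adjusted p = 1.78e-06). Ctla2a rose in D- cells to 7.12, 5.81 and 5.56, a difference of -3.07 ± 0.50. Ctla4 read 5.45, 4.73, 5.51 and 5.55 and then 6.28, 5.73 and 5.85 in D- cells, a difference of -3.49 ± 0.55 (limma adjusted p = 0.00202). These D- arrays lay below all 3 treated WT arrays. Sgip1 rose in D- as well, from 5.41, 4.99, 5.41 and 5.66 to 10.66, 10.73 and 10.80, and its fitted difference was -2.40 ± 0.41, with untreated WT arrays under the floor and untreated D- arrays at or above 4.99. The change of Sgip1 in D- cells was 5.36, beside at least 6.43 in WT cells.

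C4bp, the complement C4 binding protein, rose by at least 1.93 in WT, while both D- means lay under 5, with a fitted difference of -3.03 ± 0.33. Lgals7, a galectin, rose in WT from 7.41, 6.55, 6.67 and 7.64 to 10.49, 10.18 and 10.34, read 4.03, 5.26 and 5.05 in treated D- cells, where both means lay under 5, and had a fitted difference of -2.59 ± 0.39. Pglyrp2, a peptidoglycan amidase, had a fitted difference of -2.88 ± 0.40. Among signalling genes Prkcq differed by -2.09 ± 0.41, Dgka by -1.71 ± 0.28, Slfn2 by -1.38 ± 0.25, Arid5a by -1.32 and Zap70 by -0.59 ± 0.12. Ppp1r15a, whose promoter with its CRE is printed above, differed by -1.65 ± 0.34 and Pdgfrb by -2.15 ± 0.49 (limma adjusted p = 0.0489). Acer2, with untreated means under 5 in both lines, read 6.75, 6.28 and 6.64 in treated D- cells, below 7.96, 9.10 and 8.70 in WT. Its fitted difference was -2.80 ± 0.55, a call lost without D- 6 h replicate 2 (limma adjusted p = 0.0601) or WT 6 h replicate 2 or 3 (0.0816 and 0.0535).

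Other genes had the larger response in D-. Chst1, a sulfotransferase, read 4.19, 4.47, 4.22 and 5.28 untreated and 8.99, 8.84 and 9.04 treated in D-, while both WT means lay under 5, and the fitted difference was 4.44 ± 0.47 (limma adjusted p = 1.97e-05). Ifitm2, an interferon-induced membrane protein outside the interferon-induced list, read 1.79, 1.79, 2.01 and 2.08 and then 5.24, 5.02 and 4.82 in D-. It was high in WT at both times, with 9.74, 9.88, 9.83 and 10.03 and then 10.34, 9.58 and 9.92. Its fitted difference was 3.03 ± 0.40. Grb7, a signalling adaptor, differed by 3.03 ± 0.37, the ligase Trim16 by 2.77 ± 0.35, the nuclear receptor Nr2f2 by 2.65 ± 0.28 and Palld, the actin-binding palladin, by 3.13 ± 0.40. Both WT means of Grb7, Trim16 and Nr2f2 lay under 5.

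**Figure D5:**
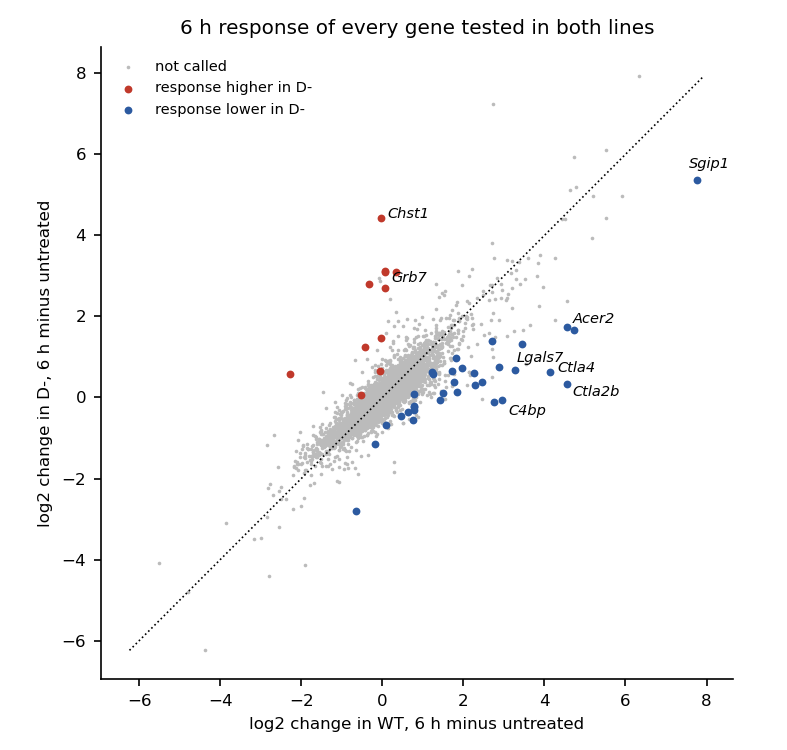
Log2 change at 6 h in D- (y axis) against WT (x axis) for every gene tested, 1 point per gene, with the 11 genes whose response was higher in D- in red, the 33 lower in blue and the others in grey; the dotted line marks equal changes, and changes of genes under log2 5 are fitted values. Ctla2b, Ctla4, C4bp and Lgals7 lie right of the line near 0 in D-, and Chst1 and Grb7 lie above it near 0 in WT.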

How the data were processed

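RNA of 26 samples was hybridised to single-colour Affymetrix arrays, 1 per sample, and groups and replicate numbers were taken from the labels. The deposited intensity of each probe set was computed by the authors with GCRMA, per the submitters' processing notes, and lies between 2 and 83530.7. Its version and the number of runs are not given in the sources used. GCRMA equalises arrays, so a change shared by most genes would not be seen, and it compresses low values. The deposited intensity was taken to log2, without pseudocount or further normalization.

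Of 22690 probe sets 64 controls were left out. By the platform annotation 20380 had 1 gene symbol, 691 several and 1555 none, and none of the latter was named. Probe sets at log2 5 (intensity 32) or more on 3 arrays were tested, 12724 in all, and the brightest stood for each of 7435 genes. Of 2767 genes with several tested probe sets, 4 (Xiap, Scrn3, H2-D1 and Zwint) were called both ways. Il7r lay under the filter. No depth applies to arrays, whose number limits the precision.

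limma 3.58.1 in R 4.3.3 (lmFit, eBayes) took all 26 arrays as 8 groups, which left 18 residual degrees of freedom beside 3.34 prior ones, and p-values were adjusted by Benjamini-Hochberg over all probe sets. The fit was tested on simulated data with noise drawn independently for each probe set and array. Such data lack the axis that the real arrays share, so the test says nothing of calls under it. Same-numbered replicates correlated in their deviations at 0.511, -0.468 and 0.363 between WT untreated and 6 h and at 0.446, -0.28 and 0.148 in D-. These are of mixed sign, and no pairing by number was assumed. Between WT 2 h and 6 h they correlated at 0.648, 0.355 and 0.379. There replicate 1 lay in cluster 1 and replicates 2 and 3 in cluster 2 at both times. Over all groups and numbers, the mean correlation of these arrays within their own cluster was 0.427, 0.218 and 0.222 at 2 h. At 6 h it was 0.422, 0.251 and 0.261. Whether pairing by number adds to a shared cluster was not tested.

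The genes described, the 46 gene lists (from textbook knowledge) and the tests were chosen with earlier results of these data known. Named genes came from the 15 highest and 15 lowest changes with separate arrays, up to 6 called members with the largest change in each list, fixed genes called or not, and the 8 highest and 8 lowest differences of the other comparisons. The text prints a part of these, chosen for readability after values were seen, and says where a gene lies outside. Alternatives were trend and robust eBayes, array weights, quantile normalization, a fit of the compared groups alone, median centring, other filters, the mean of a gene's probe sets, the cluster or replicate as a block, fits within clusters and each array left out. Promoters came from RefSeq (GRCm38.p6). Figures were drawn with matplotlib 3.10.9, pandas 2.3.3 and numpy 2.4.6 in Python 3.11.15.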

Additional observations from a re-analysis of the deposited data

Results flagged for a closer look

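A difference between the lines in the 6 h response, by the interaction test of limma (adjusted p under 0.05), drew attention to the following genes, given as the D- minus the WT log2 response, a fitted value and no fold for all but Ctla4, Prkcq, Dgka, Ppp1r15a, Slfn2, Arid5a, Zap70 and Palld, since a group mean lay under log2 5. It was -4.22 for Ctla2b, -3.49 for Ctla4, -3.07 for Ctla2a, -3.03 for C4bp, -2.88 for Pglyrp2, -2.80 for Acer2, -2.59 for Lgals7 and -2.40 for Sgip1. It was -2.15 for Pdgfrb, -2.09 for Prkcq, -1.71 for Dgka, -1.65 for Ppp1r15a, -1.38 for Slfn2, -1.32 for Arid5a and -0.59 for Zap70. In the other direction it was 4.44 for Chst1, 3.13 for Palld, 3.03 for Grb7, 3.03 for Ifitm2, 2.77 for Trim16 and 2.65 for Nr2f2.

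For each gene below, 1 of the 4 untreated WT arrays lay apart from the others by Dixon's criterion, which chance meets in about 1 of 20 groups. It was not the same array for all genes, being replicate 3 for Chdh and replicate 2 for Arid5a. The log2 level of the array that lay apart was 9.90 for Chdh, 3.02 for Iigp1, 6.70 for Zfp36, 6.23 for Il12rb1, 8.01 for Jak2, 10.28 for Hk2 and 5.87 for Arid5a.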

How the results depend on the processing

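For WT 6 h against untreated, 4601 probe sets were called. The count was 1360 within cluster 1, which has 1 treated array, and 4849 within cluster 2. It was 6085 with array weights, 5516 with the cluster as a block and 3579 to 4632 with 1 array left out. With the replicate number as a block it was 5292. For 6 h against 2 h, 2744 probe sets were called. The count was 4584 with array weights, 4138 with the cluster as a block, 1634 with only the groups compared, 0 within cluster 1 (1 array a group) and 1777 to 2648 with 1 array left out, lowest without WT 6 h replicate 3. With the replicate block, which takes same-numbered arrays as pairs, it was 3581. For the D- minus WT response, 66 were called, against 353 with array weights, 138 with the cluster as a block, 92 with the replicate block, 0 within cluster 1, 215 within cluster 2 and 35 to 110 with 1 array left out. Of the arrays left out, WT 6 h replicate 1 gave 110, replicate 2 gave 35, replicate 3 gave 43, and D- 6 h replicates 2 and 3 gave 43 and 42. The cause of these shifts was not tested, beyond the fewer arrays within a cluster or with 1 left out.

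Of 199 named-gene changes at 6 h, 38 were no longer called within cluster 1 and 3 within cluster 2. Some uncalled changes turned sign. That of Ccnd2 was 0.03 with array weights and 0.06 within cluster 2 and without WT 6 h replicate 1, that of Ccnd3 was 0.18 and of Bcl2 -0.02 within cluster 1, and that of Klf2 was -0.03 without WT 6 h replicate 1. With 1 array left out, Ccnd2 ran from -0.19 to 0.06 and Klf2 from -0.03 to 0.52. The fitted change of Chst1 in WT, where both means lay under log2 5 so that it is no fold, was 0.12 with array weights, 0.01 with quantile normalization, 0.06 with the replicate block, 0.16 within cluster 2, 0.06 without WT 6 h replicate 2 and 0.08 without WT untreated replicate 1. Ifitm2 in WT gave -0.03 with array weights, -0.18 within cluster 2 and, with 1 array left out, from -0.12 (WT 6 h replicate 1) to 0.26. In a fit of the compared groups alone, the differences of Gbp2b, Gbp6, Iigp1, Ifi47 and Sgtb between 6 h and 2 h were not called. Values near the floor of log2 5 limit what can be said of dim genes.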
